A study of Mus musculus with 18 samples.

Results

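The Toll-like receptor (TLR) genes were followed through 18 RNA-seq libraries of bone marrow-derived macrophages (BMDMs), cells grown from mouse bone marrow. The members were the 10 listed receptor genes Tlr1, Tlr2, Tlr3, Tlr4, Tlr5, Tlr6, Tlr7, Tlr8, Tlr9 and Tlr13, taken by symbol, and all 10 were found among the 24485 genes in the tables. Each of 6 groups held 3 libraries, 1 per mouse. All mice were male Il10-/- animals on the C57BL/6J background, aged 12 weeks. Every group, controls included, thus lacked an intact gene for the anti-inflammatory cytokine IL-10. No wild-type cells were part of the set.

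Cells spent 6 days in medium with L929 conditioned medium and then received 1 of 3 pretreatments for 12 hours. These were 500 nM (+)-JQ1, which blocks the bromodomains with which BET proteins bind acetylated histones, 10 ng/mL IL-10, or neither. LPS at 50 ng/mL, or PBS, was then added for 4 hours, which gave the groups Unstimulated, JQ1, IL-10, LPS, LPS + JQ1 and LPS + IL-10. The labels call the cells without pretreatment untreated, while the study's methods name a vehicle control before LPS. The comparisons ask how LPS sets the levels of its own and of related receptors, and how BET inhibition or added IL-10 alters this.

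TLRs are membrane proteins that recognise conserved microbial molecules and signal through adaptors to switch on inflammatory and interferon genes. TLR1, TLR2, TLR4, TLR5 and TLR6 sit at the cell surface and recognise lipoproteins, LPS and flagellin, whereas TLR3, TLR7, TLR8, TLR9 and TLR13 sit in endosomes and recognise nucleic acids. Macrophages are known for a broad set of these receptors, and LPS, the ligand of TLR4, is known to change the expression of several of them.

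Depth was 6781952 to 28289498 expected counts per library, in which the 10 genes took 0.0429% to 0.177%. A floor of 3 counts corresponded to 0.106 to 0.442 CPM (reads scaled to the library total), and such floors cover counting error only. Il10, the disrupted gene, kept 16.0 to 196.0 expected counts per library, and no wild-type library was there to compare. All 7 macrophage markers were at 9.96 TPM or more in every library, with Adgre1 at 448 to 1128 TPM. The B cell, T cell and mast cell markers stayed at or under 0.75 TPM, with Ly6g (neutrophils) and Mcpt4 (mast cells) at 0 throughout. Dendritic cell markers reached 2.63 TPM (Ccr7) and fibroblast markers 4.45 TPM (Col1a1). The dendritic cell markers summed to 0.6 to 1.42 TPM in Unstimulated and 0.25 to 1.17 TPM in JQ1. In LPS they summed to 3.06 to 4.06 TPM, and in LPS + JQ1 to 1.51 to 2.04 TPM. Of the 5 neutrophil markers, S100a8 reached 37.6 TPM and S100a9 40.9 TPM, and Mpo and Elane stayed at or under 0.15 TPM. Their summed TPM was 21.1 to 74.0 in Unstimulated, 6.76 to 13.4 in JQ1, 32.4 to 45.9 in LPS and 10.7 to 23.9 in LPS + JQ1, and so was lower in the JQ1 groups, as were most TLR genes. The summed TPM of the macrophage markers was 22635 to 24241 in Unstimulated, 28528 to 28663 in JQ1, 12530 to 13675 in LPS and 17945 to 20555 in LPS + JQ1. The part of any of these lists in the TLR differences was not tested. In such bulk samples fewer cells of a type and less RNA per cell cannot be told apart. Scaling mattered: between LPS and Unstimulated, 12243 expressed genes had a median log2 change of -0.07 with the median-of-ratios scaling used here, -0.13 with TMM, -0.996 with total-count scaling and -0.70 on log2(TPM + 1). Replicate 1 was sequenced in lane 7 and replicate 3 in lane 8, while replicate 2 was in lane 7 without LPS and in lane 8 with it. With the lane as a covariate the call of 1 member in 1 comparison changed, as given under Tlr9.

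LPS shifted the TLR genes in opposite directions, and JQ1 lowered nearly all of them. LPS raised Tlr1, Tlr2, Tlr3, Tlr6 and Tlr7 and lowered Tlr4 and Tlr13 under every setting tried, while small rises of Tlr8 and Tlr9 depended on scaling. JQ1 before LPS left Tlr2 near its LPS level and lowered Tlr1, Tlr3, Tlr4, Tlr6, Tlr7, Tlr8, Tlr9 and Tlr13, by 3.70-fold (Tlr4) to 27.1-fold (Tlr7). IL-10 before LPS passed the test for Tlr9 alone. Tlr5 was at or near 0.

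**Figure D1:**
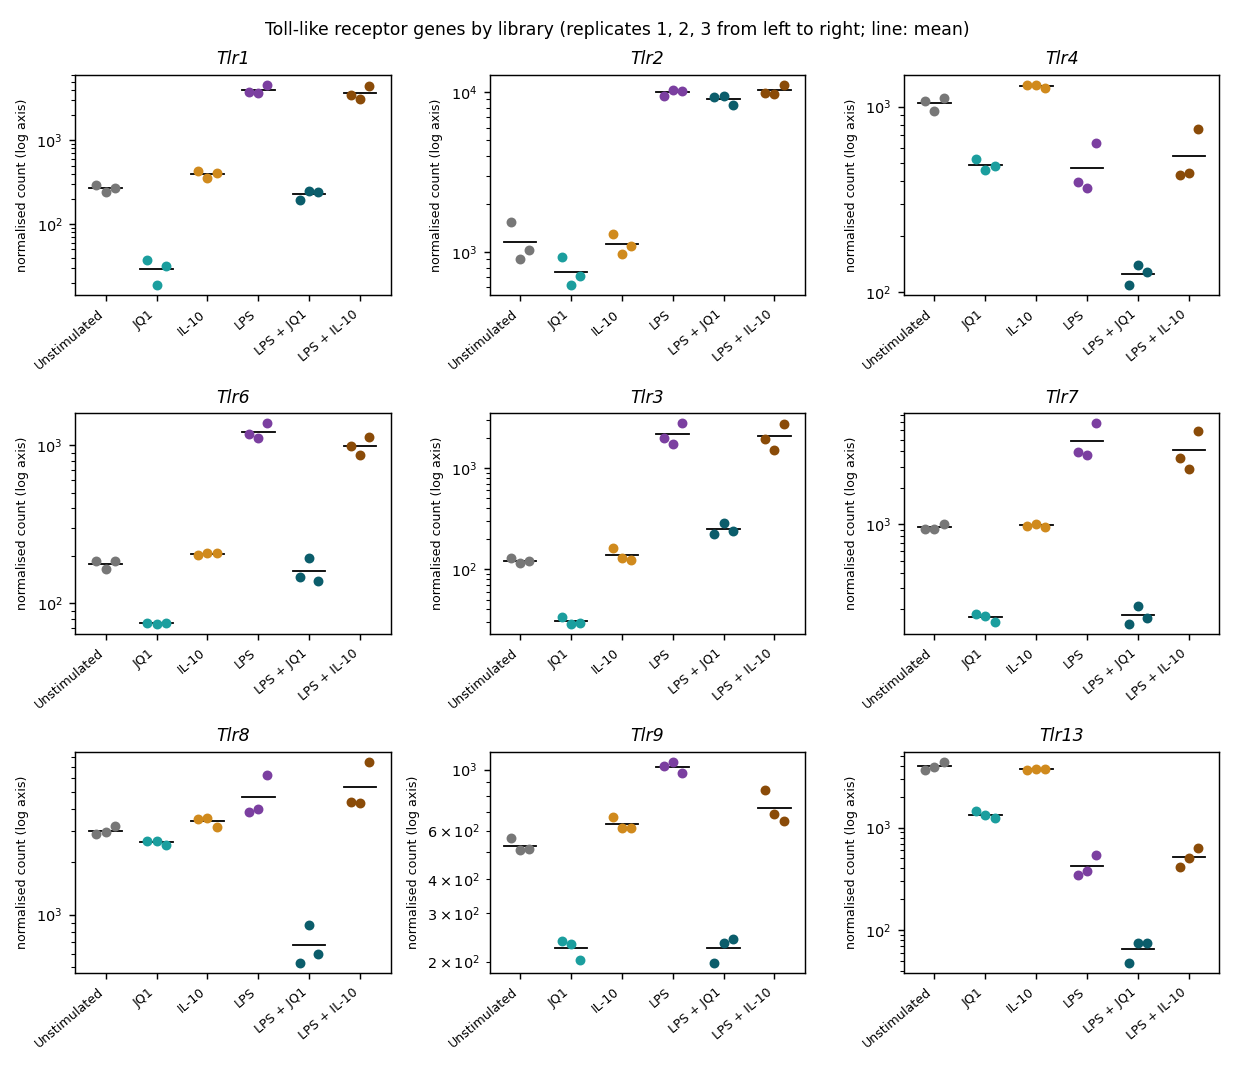
Normalised counts of 9 Toll-like receptor genes in each library, on a log axis, with replicates 1, 2 and 3 side by side within each group and a line at the mean. Tlr2 stays high in LPS + JQ1, where the other genes lie below their LPS level, and replicate 3 is the highest of the LPS and of the LPS + IL-10 libraries for Tlr1, Tlr3, Tlr4, Tlr6, Tlr7, Tlr8 and Tlr13. Tlr5 is not drawn because its counts were at or near 0.

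The main comparison of each pair of groups used the DESeq2 Wald test, adjusted over all genes, with an adjusted p under 0.05 as the threshold. For LPS against Unstimulated, 9 of 10 members passed (7 higher and 2 lower), where 64.5% of all 14965 genes tested did, 31.6% higher and 32.9% lower. The median log2 fold change of the 9 members other than Tlr5 was 2.34, beside -0.07 over all genes tested. Under total-count scaling the split was 5 higher and 3 lower, and on log2(TPM + 1) it was 5 higher and 2 lower.

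For JQ1 against Unstimulated, 8 of 10 members passed, all lower (45.7% of all genes, with 21.9% higher and 23.7% lower), with a median of -1.27 over the same 9 (all genes, -0.00061). Tlr8 missed the threshold and Tlr5 had too few reads for an adjusted p. For LPS + JQ1 against LPS, 8 of 10 passed, all lower (57.3% of all genes, with 24.4% higher and 32.9% lower), with a median of -2.82 (all genes, -0.11). Those 8 genes passed in each of the 31 alternative settings.

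For IL-10 against Unstimulated, 1 of 10 members passed, Tlr1, which was higher (2.81% of all genes, with 1.8% higher and 1.01% lower). For LPS + IL-10 against LPS, 1 of 10 passed, Tlr9, which was lower (17.2% of all genes, with 8.38% higher and 8.81% lower), and the median over the 9 was -0.06 (all genes, -0.02). Single calls in both comparisons changed with the settings, as given gene by gene.

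The LPS response after each pretreatment was counted in the same way. For LPS + JQ1 against JQ1, 7 of 10 passed (4 higher and 3 lower, against 58.6% of all genes, with 27.6% higher and 31% lower), and with total-count scaling or on log2(TPM + 1) there were 4 higher and 4 lower. For LPS + IL-10 against IL-10, 8 of 10 passed (6 higher and 2 lower, against 67% of all genes, with 33.2% higher and 33.8% lower), against 5 higher and 4 lower with total-count scaling and 5 higher and 3 lower on log2(TPM + 1). The 2 lower genes were Tlr4 and Tlr13, as with LPS alone.

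For LPS + JQ1 against Unstimulated, 8 of 10 passed (2 higher and 6 lower, against 62.4% of all genes, with 30.1% higher and 32.3% lower), and log2(TPM + 1) gave 1 higher and 7 lower. The 2 higher genes were Tlr2 and Tlr3, and the lower genes were Tlr4, Tlr5, Tlr7, Tlr8, Tlr9 and Tlr13. For LPS + JQ1 against LPS + IL-10, 8 of 10 passed, all lower (55.3% of all genes, with 23.8% higher and 31.6% lower), and Tlr2 again did not.

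**Figure D2:**
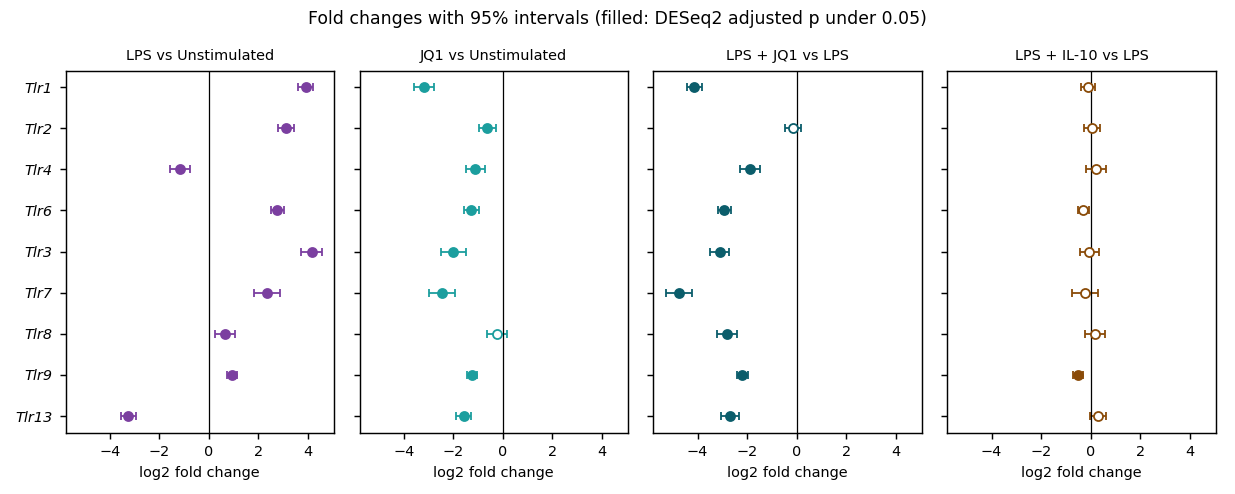
Log2 fold changes of 9 Toll-like receptor genes in 4 comparisons, with 95% intervals as bars and filled points for an adjusted p under 0.05. In LPS + JQ1 against LPS the interval of Tlr2 (-0.46 to 0.19) spans 0 and the intervals of the other 8 genes lie below it.

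The order of the receptors by TPM, which scales reads per length, was given by Tlr13 at 144 ± 15.1 TPM (SD, n = 3), Tlr8 at 87.6 ± 7.27, Tlr2 at 59.6 ± 18.2 and Tlr7 at 36.0 ± 2.95 in Unstimulated cells. Tlr9 (22.1 ± 1.64), Tlr4 (18.6 ± 2.11), Tlr1 (13.6 ± 1.82), Tlr6 (10.2 ± 0.949) and Tlr3 (4.03 ± 0.328) followed. No neighbours in that order overlapped in their 3 libraries. Tlr13, a receptor for bacterial ribosomal RNA, was thus the receptor with the highest TPM at rest, and the LPS receptor Tlr4 was in the lower part.

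With LPS the order changed. Tlr2 led at 299 ± 32.9 TPM, followed by Tlr1 at 120.4 ± 25.6, Tlr7 at 108 ± 46.3 and Tlr8 at 83.0 ± 28.6, where Tlr1, Tlr7 and Tlr8 overlapped with their neighbours. Tlr3 (42.2 ± 13.4) and Tlr6 (40.8 ± 7.44) also overlapped, and Tlr13 (8.91 ± 2.85) overlapped with Tlr4 (4.90 ± 1.94) at the bottom above Tlr5. In JQ1 cells without LPS, Tlr8 (65.5 ± 1.93) stood above Tlr13 (41.8 ± 3.67), which overlapped with Tlr2 (33.8 ± 7.97). In LPS + JQ1 cells Tlr2 stood at 335 ± 30.6 TPM and no other receptor was above 19.4 TPM in any library. From Tlr1 (8.53 ± 1.42) down to Tlr7 (4.85 ± 1.02) the levels overlapped from each gene to the next.

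The summed TPM of the 10 genes was 395.5 ± 33.0 (SD, n = 3) in Unstimulated, 168.1 ± 15.4 in JQ1 and 430.0 ± 18.01 in IL-10. It was 732.5 ± 154.4 in LPS, 385.3 ± 38.7 in LPS + JQ1 and 769.4 ± 183.7 in LPS + IL-10. The libraries of LPS against Unstimulated, JQ1 against Unstimulated and LPS + JQ1 against LPS did not overlap, and the exact two-sided permutation test gave p = 0.1 for each, the smallest p that 3 against 3 libraries allow. LPS + IL-10 overlapped with LPS (p = 0.7, exact permutation test). The sum in LPS + JQ1 was near that of Unstimulated cells, but its makeup differed: Tlr2 took 15.0% ± 4.06 of it in Unstimulated, 41.5% ± 4.76 in LPS and 87.0% ± 1.81 in LPS + JQ1 (p = 0.1 for LPS + JQ1 against LPS, exact permutation test). The 5 surface receptors together took 25.7% ± 4.41 in Unstimulated, 64.2% ± 4.55 in LPS and 91.3% ± 1.33 in LPS + JQ1. In LPS + JQ1 nearly all of that share was Tlr2. The mean shares of Tlr1, Tlr4 and Tlr6 were 2.22%, 0.42% and 1.70% there, below the 3.44%, 4.71% and 2.57% in Unstimulated.

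**Figure D3:**
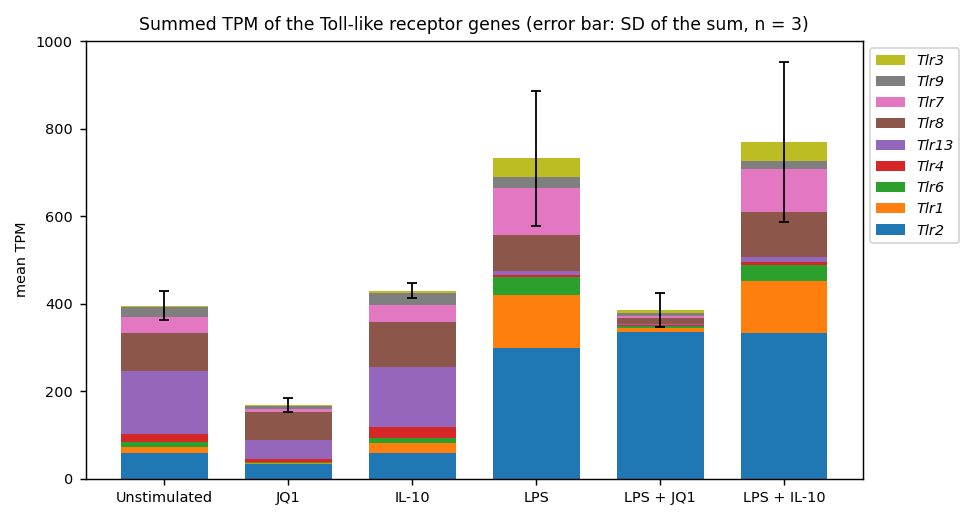
Mean TPM of the Toll-like receptor genes stacked by group, with the SD of the sum (n = 3) as error bars. Tlr13 and Tlr8 make up the largest stacks at rest, Tlr2 does with LPS, and in LPS + JQ1 almost the whole bar is Tlr2. Tlr5, at most 0.14 TPM on average, is too low to see.

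Among the surface receptors, Tlr2 (mm9 chr3:83640195-83645689, minus strand, 3 exons) encodes the shared partner of the receptors for bacterial lipoproteins. In normalised counts, given here and for the other genes in the order of replicates 1, 2 and 3, Tlr2 had 1533, 899.8 and 1029.6 in Unstimulated, 9404, 10289 and 10141 in LPS and 9326, 9495 and 8268 in LPS + JQ1. It had 932, 620.0 and 709 in JQ1, 1303, 973 and 1083 in IL-10 and 9857, 9771 and 11141 in LPS + IL-10. All 9 LPS-stimulated libraries lay above all 9 others, and LPS + JQ1 overlapped with LPS. LPS raised Tlr2 8.59-fold (log2 fold change 3.10, SE 0.167, DESeq2 adjusted p 1.51e-75). The difference between LPS + JQ1 and LPS was -0.14 (95% interval -0.46 to 0.19, adjusted p 0.498), and it became 0.16 on log2(TPM + 1) and 0.24 under total-count scaling, without passing in any of the 31 alternatives.

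In cells without LPS, JQ1 lowered Tlr2 (log2 fold change -0.62, SE 0.170, DESeq2 adjusted p 9.57e-04), in 3 of 3 pairs, although Unstimulated replicate 2 lay below JQ1 replicate 1. That call was lost when the 2 groups were fitted alone (adjusted p 0.0755) and without replicate 3 of every group (0.0756), and without Unstimulated replicate 1 the estimate was -0.36 (adjusted p 0.0415). The LPS response of Tlr2 after JQ1 was 3.58, and the interaction, the response with JQ1 minus that without, was 0.48 (adjusted p 0.0938). The interaction of Tlr2 passed with edgeR (0.59, adjusted p 0.0445), total-count scaling (1.03) and log2(TPM + 1) (0.95), and without Unstimulated replicate 2 (0.63) or JQ1 replicate 1 (0.66), whereas without Unstimulated replicate 1 it was 0.22 (adjusted p 0.397). With the median-of-ratios scaling, Tlr2 was the 1 member of the 9 with a positive interaction estimate.

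Since Tlr2 parted from the other receptors under JQ1, the sequence before its start is shown. The 250 bases before the RefSeq start (promoter table of build GRCm38.p6, placed on mm9 by exact match) held 91 bases outside the annotated exons, at mm9 chr3:83645690-83645780, minus strand. Capitals mark overlapping matches to the NF-kB consensus, the letters bound by the NF-kB factors.
Tlr2: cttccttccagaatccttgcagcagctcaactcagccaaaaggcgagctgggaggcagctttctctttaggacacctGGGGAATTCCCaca
The 300-base windows (250 bases before to 50 after the start) of 32851 RefSeq starts were searched on both strands for this consensus, which 4.51% held, for its narrower form, GGG and TTTCC with any 2 bases between (1.63%), for the interferon response element, GAAA and GAAA with any 2 bases between (3.44%), for the AP-1 motif TGANTCA (7.81%) and for the PU.1 motif GAGGAAGT (3.20%). The Tlr2 window held 3 matches to the consensus and none to the other motifs, the narrower NF-kB form among them. The consensus was added after the promoter windows were seen, so its matches are a description and not a test. Among the other receptors with a table entry, Tlr3 held 1 match that both NF-kB forms cover, 1 of the Tlr6 starts held 2 overlapping interferon response elements, 1 of the Tlr1 starts held 1 PU.1 motif and Tlr9 held 1 AP-1 and 1 PU.1 motif. The windows of Tlr5, Tlr8 and Tlr13 held none of these letters. Tlr4 and Tlr7 had no entry.

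Tlr1 (mm9 chr5:65316050-65324000, minus strand, 3 exons) encodes the TLR2 partner for triacylated lipoproteins. Tlr1 had normalised counts of 293, 244 and 268 in Unstimulated, 3796, 3686 and 4629.9 in LPS and 195, 251 and 243 in LPS + JQ1. They were 37.2, 18.7 and 32.1 in JQ1, 436, 358 and 407 in IL-10 and 3505, 3119 and 4476 in LPS + IL-10. LPS + JQ1 overlapped with Unstimulated and lay below every LPS library. LPS raised Tlr1 15.0-fold (log2 fold change 3.90, SE 0.151, DESeq2 adjusted p 2.33e-145), JQ1 lowered it 9.11-fold at rest (adjusted p 8.04e-50) and 17.6-fold under LPS (adjusted p 1.34e-156).

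IL-10 at rest raised Tlr1 1.49-fold, in 3 of 3 pairs (log2 fold change 0.57, SE 0.154, DESeq2 adjusted p 0.0116). That call was lost with edgeR (adjusted p 0.0613), on log2(TPM + 1) (0.178), without replicate 1 of every group (0.132), and without Unstimulated replicate 2 (0.0906), Unstimulated replicate 3 (0.0614), IL-10 replicate 1 (0.161) or IL-10 replicate 3 (0.0544), with estimates of 0.51 to 0.61 on the log2 scale.

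Tlr6 (mm9 chr5:65344345-65351287, minus strand, 2 exons) encodes the partner for diacylated lipoproteins and neighbours Tlr1. For Tlr6 the normalised counts were 184, 166 and 186 in Unstimulated, 75.2, 73.9 and 75.1 in JQ1 and 203, 209 and 207 in IL-10. They were 1178, 1113 and 1375 in LPS, 147, 195 and 139 in LPS + JQ1 and 984, 873 and 1129 in LPS + IL-10. The order of the 6 group means was that of Tlr1. LPS raised Tlr6 6.79-fold (log2 fold change 2.76, SE 0.129, DESeq2 adjusted p 4.32e-100) and JQ1 lowered it 7.59-fold under LPS (adjusted p 1.92e-104). LPS + IL-10 was lower than LPS in 3 of 3 pairs, with a log2 fold change of -0.29 and an adjusted p of 0.0690. This difference passed in 3 of 31 alternatives, without LPS replicate 2 (0.0440), LPS + JQ1 replicate 2 (0.0434) or LPS + IL-10 replicate 3 (0.0101). LPS + JQ1 against Unstimulated gave -0.23 for Tlr1 (adjusted p 0.208) and -0.16 for Tlr6 (adjusted p 0.339), and both passed as lower with total-count scaling (-0.78 and -0.71) and on log2(TPM + 1) (-0.62 and -0.57).

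Tlr1 and Tlr6 were the 2 members whose expected counts were not whole, in 18 of 18 libraries. RSEM divides reads that match more than 1 gene between the genes. Their annotated coding sequences were 74.8% identical and shared 454 stretches of 50 bases, which covered 19.4% of such stretches in Tlr1 and 19.1% in Tlr6, while no other pair of the 10 genes shared any. The reads were paired, and a pair with an end outside shared sequence can be assigned. The shares of stretches are therefore not shares of ambiguous reads. The longest identical run had 229 bases and is shown because pairs with both 50-base ends in it cannot be told apart. It spans coding bases 1468 to 1696 of 2388 in Tlr1 (mm9 chr5:65316776-65317004) and 1507 to 1735 of 2421 in Tlr6 (mm9 chr5:65345067-65345295), both on the minus strand. Capitals mark the identical run and lower case the 10 bases on either side.
Tlr1: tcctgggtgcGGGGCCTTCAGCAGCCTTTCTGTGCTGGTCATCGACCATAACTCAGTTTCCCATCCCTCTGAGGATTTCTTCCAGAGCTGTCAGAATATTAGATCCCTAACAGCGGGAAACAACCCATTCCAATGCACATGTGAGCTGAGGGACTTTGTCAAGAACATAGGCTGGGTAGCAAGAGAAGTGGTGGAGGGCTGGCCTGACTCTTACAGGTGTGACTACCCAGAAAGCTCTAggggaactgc
Tlr6: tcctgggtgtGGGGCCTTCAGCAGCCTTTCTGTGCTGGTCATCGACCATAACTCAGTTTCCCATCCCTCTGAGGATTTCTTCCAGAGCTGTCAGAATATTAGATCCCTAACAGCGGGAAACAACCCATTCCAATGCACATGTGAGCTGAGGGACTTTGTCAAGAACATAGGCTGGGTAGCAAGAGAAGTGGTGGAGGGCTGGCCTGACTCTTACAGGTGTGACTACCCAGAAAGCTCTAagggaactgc
The division of such reads makes the level of each gene uncertain, and its part in their shared pattern was not tested.

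Tlr4 (mm9 chr4:66488618-66591318, plus strand) encodes the receptor of LPS itself. In normalised counts Tlr4 had 1071, 952 and 1112 in Unstimulated, 525, 455 and 481 in JQ1 and 1313, 1303 and 1254 in IL-10. It had 394, 365 and 636 in LPS, 109, 140.1 and 128 in LPS + JQ1 and 430.3, 441 and 758 in LPS + IL-10. Every LPS library lay below every Unstimulated library, and every LPS + JQ1 library lay below those. LPS lowered Tlr4 2.25-fold (log2 fold change -1.17, SE 0.201, DESeq2 adjusted p 1.76e-08), JQ1 lowered it 2.15-fold at rest (adjusted p 2.42e-07), and cells with both were 8.31-fold below Unstimulated cells (adjusted p 5.80e-46).

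LPS replicate 3 and LPS + IL-10 replicate 3 were higher than the other libraries of their groups for Tlr4. Without LPS replicate 3, LPS + IL-10 passed as higher than LPS (0.53, adjusted p 0.0347), where the value with all libraries was 0.23 (adjusted p 0.541). This difference passed in 1 of 31 alternatives. IL-10 at rest gave 0.30 (adjusted p 0.790), and passed only when the 2 groups were fitted alone (adjusted p 0.00903).

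Tlr5 (mm9 chr1:184884919-184906175, plus strand) encodes the flagellin receptor and was hardly detected. Expected counts were 4, 2 and 4 in Unstimulated, 0, 0 and 1 in JQ1, 11, 1 and 3 in IL-10, and 0, 0 and 1 in LPS. They were 0 in all 6 libraries of LPS + JQ1 and LPS + IL-10, which with the floor of 3 counts allows up to 0.137 to 0.232 CPM per library. The lower Tlr5 in LPS + JQ1 than in Unstimulated passed with an adjusted p of 0.0436, but not with the replicate block (0.0546), and it was lost in 22 of 31 alternatives. No fold is given, since no library of either group had more than 4 counts.

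Among the endosomal receptors, Tlr3 (mm9 chr8:46481019-46495962, minus strand) encodes the receptor for double-stranded RNA and had the largest LPS rise of the 10 genes under the median-of-ratios scaling. Its normalised counts were 128, 115 and 121 in Unstimulated, 33.7, 28.6 and 29.3 in JQ1 and 163, 128 and 124 in IL-10. They were 1982, 1739 and 2758 in LPS, 222, 286 and 238 in LPS + JQ1 and 1949, 1502 and 2747 in LPS + IL-10. LPS + JQ1 lay between Unstimulated and LPS with no overlap on either side. LPS raised Tlr3 17.7-fold (log2 fold change 4.15, SE 0.210, DESeq2 adjusted p 7.59e-86), and JQ1 lowered it 3.98-fold at rest (adjusted p 5.83e-14) and 8.68-fold under LPS (adjusted p 1.66e-51). LPS + JQ1 was 2.04-fold above Unstimulated (adjusted p 4.95e-06), a call that was lost on log2(TPM + 1) (adjusted p 0.0578).

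Tlr7 (mm9 chrX:163742861-163768490, minus strand) encodes a receptor for single-stranded RNA and showed the largest fall with JQ1 under LPS among the 10 genes. Tlr7 had normalised counts of 919.5, 925 and 1013 in Unstimulated, 3919, 3761 and 6794 in LPS and 151, 212 and 171 in LPS + JQ1. They were 184, 177 and 157 in JQ1, 980.5, 1017 and 959.5 in IL-10 and 3502, 2859 and 5897 in LPS + IL-10. JQ1 and LPS + JQ1 libraries overlapped, far below Unstimulated. LPS raised Tlr7 5.06-fold (log2 fold change 2.34, SE 0.265, DESeq2 adjusted p 3.77e-18), JQ1 lowered it 5.51-fold at rest (adjusted p 2.22e-18) and 27.1-fold under LPS (adjusted p 2.96e-67).

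After JQ1 the LPS response of Tlr7 was 0.04 (95% interval -0.50 to 0.59, adjusted p 0.909). Replicate 3 stood apart for Tlr7 too: without LPS + IL-10 replicate 3, LPS + IL-10 passed as lower than LPS (-0.60, adjusted p 0.0147), against -0.24 (adjusted p 0.655) with all libraries. This difference passed in 1 of 31 alternatives.

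Tlr8 (mm9 chrX:163680626-163702261, minus strand) lies beside Tlr7 and encodes a related RNA receptor. For Tlr8 the normalised counts were 2869, 2966 and 3209 in Unstimulated, 2651, 2625 and 2492 in JQ1 and 3515, 3586 and 3187 in IL-10. They were 3874, 3991 and 6286 in LPS, 530.1, 874 and 596 in LPS + JQ1 and 4382, 4367 and 7413 in LPS + IL-10. JQ1 with LPS took Tlr8 below every other group, while the JQ1 libraries lay just below those of Unstimulated, with no overlap.

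JQ1 lowered Tlr8 7.07-fold under LPS (log2 fold change -2.82, SE 0.209, DESeq2 adjusted p 2.73e-40), whereas at rest the difference was -0.22 (95% interval -0.63 to 0.19, adjusted p 0.410) and passed only with the 2 groups fitted alone (adjusted p 0.00243). The LPS rise of Tlr8 (0.65, adjusted p 0.00325) turned to -0.28 under total-count scaling and -0.12 on log2(TPM + 1), and was lost without LPS replicate 3 (0.38, adjusted p 0.155) or Unstimulated replicate 1 (0.61, adjusted p 0.0536). Relative to the median of all genes it was 0.71 with the main scaling and 0.72 under total counts. After IL-10 the LPS rise of Tlr8 (0.65, adjusted p 0.00282) likewise turned to -0.17 under total counts and -0.0804 on log2(TPM + 1), and was lost without LPS + IL-10 replicate 3 (0.35, adjusted p 0.0880) or without replicate 3 of every group (0.31, adjusted p 0.0651).

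Tlr9 (mm9 chr9:106124929-106129207, plus strand, 2 exons) encodes the receptor for unmethylated CpG DNA. In normalised counts Tlr9 had 562, 511 and 512 in Unstimulated, 237, 232 and 203 in JQ1 and 675, 612 and 616 in IL-10. It had 1031, 1064 and 972 in LPS, 198, 234 and 241 in LPS + JQ1 and 842, 687 and 651 in LPS + IL-10. JQ1 and LPS + JQ1 overlapped, and LPS + IL-10 lay between IL-10 and LPS, overlapping with IL-10. JQ1 lowered Tlr9 2.36-fold at rest (adjusted p 5.39e-27) and 4.56-fold under LPS (adjusted p 1.62e-82). The LPS rise (log2 fold change 0.95, SE 0.102, DESeq2 adjusted p 8.14e-20) fell to 0.02 under total-count scaling and 0.17 on log2(TPM + 1), where it did not pass. Relative to the median of all genes it was 1.02 under both the main and the total-count scaling.

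Tlr9 was the member that IL-10 lowered under LPS (log2 fold change -0.50, SE 0.102, DESeq2 adjusted p 2.02e-05), in 3 of 3 pairs with no overlap, a call lost without replicate 2 of every group (-0.43, adjusted p 0.0774). The LPS response after IL-10 was 0.19 (adjusted p 0.0875), with -0.64 under total-count scaling and -0.51 on log2(TPM + 1), both passing as lower. Relative to the median of all genes, which these settings moved to -0.88 and -0.65, it was 0.24 with the main scaling, 0.23 with total counts and 0.14 on log2(TPM + 1). It passed as higher with the sequencing lane as a covariate (0.22, adjusted p 0.0453) and without LPS + IL-10 replicate 3 (0.27, adjusted p 0.0194). After JQ1 the LPS response of Tlr9 was 0.00 (95% interval -0.24 to 0.24), and it was -0.37 under total-count scaling, which moved the median of all genes to -0.45. The 250 bases before the RefSeq start of Tlr9, none of them in an annotated exon (mm9 chr9:106124679-106124928, plus strand), are shown beside those of Tlr2 as a receptor that JQ1 lowered in both states, with its AP-1 motif in capitals.
Tlr9: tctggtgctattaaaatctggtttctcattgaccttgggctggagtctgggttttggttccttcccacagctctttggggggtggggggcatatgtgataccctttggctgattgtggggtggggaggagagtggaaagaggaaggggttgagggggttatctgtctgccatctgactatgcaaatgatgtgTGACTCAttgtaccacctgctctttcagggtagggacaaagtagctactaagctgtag
Neither NF-kB form matched in this window, which says only that no such letters are there. The Tlr3 window held 1 NF-kB match, which lay outside its longest stretch free of annotated exons. JQ1 lowered Tlr3 in both states as well. A link between these letters and the response to JQ1 was not tested.

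Tlr13 (mm9 chrX:103338543-103355832, plus strand) encodes the receptor for bacterial ribosomal RNA. Tlr13 had normalised counts of 3675, 3966 and 4365 in Unstimulated, 1455, 1344 and 1234 in JQ1 and 3656, 3741 and 3742 in IL-10. They were 346, 378 and 537 in LPS, 47.5, 73.7 and 73.9 in LPS + JQ1 and 410.0, 505 and 637 in LPS + IL-10. The groups Unstimulated, JQ1, LPS and LPS + JQ1 stood apart in that falling order. LPS lowered Tlr13 9.51-fold (log2 fold change -3.25, SE 0.160, DESeq2 adjusted p 5.79e-91), JQ1 lowered it 2.98-fold at rest (adjusted p 7.76e-23) and 6.48-fold under LPS (adjusted p 6.48e-43). Cells with both were 61.6-fold below Unstimulated cells (log2 fold change -5.95, adjusted p 2.01e-216), the widest difference of any member in any comparison made. LPS + IL-10 was higher than LPS in 3 of 3 pairs (0.30, adjusted p 0.228). This difference passed in 2 of 31 alternatives, without LPS replicate 3 (0.52, adjusted p 0.00663) or LPS + IL-10 replicate 1 (0.45, adjusted p 0.0395).

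Whether the LPS response itself differed with JQ1 was tested as an interaction. It was negative and passed for 8 of 10 members. Of all genes, 23.8% were negative and passed, 17.7% were positive and passed and 41.5% passed in all. The negative values cover unlike changes. With the main scaling, the LPS rises of Tlr1 (3.90), Tlr3 (4.15) and Tlr6 (2.76) were smaller after JQ1 (2.95, 3.02 and 1.11). Those of Tlr7 and Tlr9 were 0.04 and 0.00 after it. The Tlr8 rise (0.65) became a fall (-1.96). The falls of Tlr4 (-1.17) and Tlr13 (-3.25) were larger after JQ1 (-1.95 and -4.37). The interactions were largest for Tlr8 (-2.60, SE 0.294, DESeq2 adjusted p 2.39e-17), Tlr7 (-2.30, adjusted p 2.05e-08) and Tlr6 (-1.66, adjusted p 1.72e-14). Tlr6, Tlr7, Tlr8 and Tlr9 passed in all 31 alternatives. The other 4 did not: with total-count scaling, which moved the median of all genes from -0.05 to 0.51, only 4 members passed as lower and Tlr2 passed as higher, and the Tlr4 estimate of -0.78 turned to 0.0750 on log2(TPM + 1) and was -0.48 without LPS replicate 3 (adjusted p 0.122).

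With IL-10 the interaction passed for 2 of 10 members (7.44% of all genes, with 4% higher and 3.44% lower), Tlr9 (-0.76, adjusted p 8.43e-06) and Tlr1 (-0.70, adjusted p 0.0163), both negative. Tlr9 was lost without replicate 2 of every group (adjusted p 0.0601) and Tlr1 in 12 of 31 alternatives, edgeR among them (0.0501). Tlr13 passed without LPS replicate 3 (0.63, adjusted p 0.0220) and Tlr6 without LPS + IL-10 replicate 3 (-0.59, adjusted p 0.0134) or LPS replicate 2 (-0.55, adjusted p 0.0446). Tlr13 thus passed in 1 of 31 alternatives and Tlr6 in 2.

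**Figure D4:**
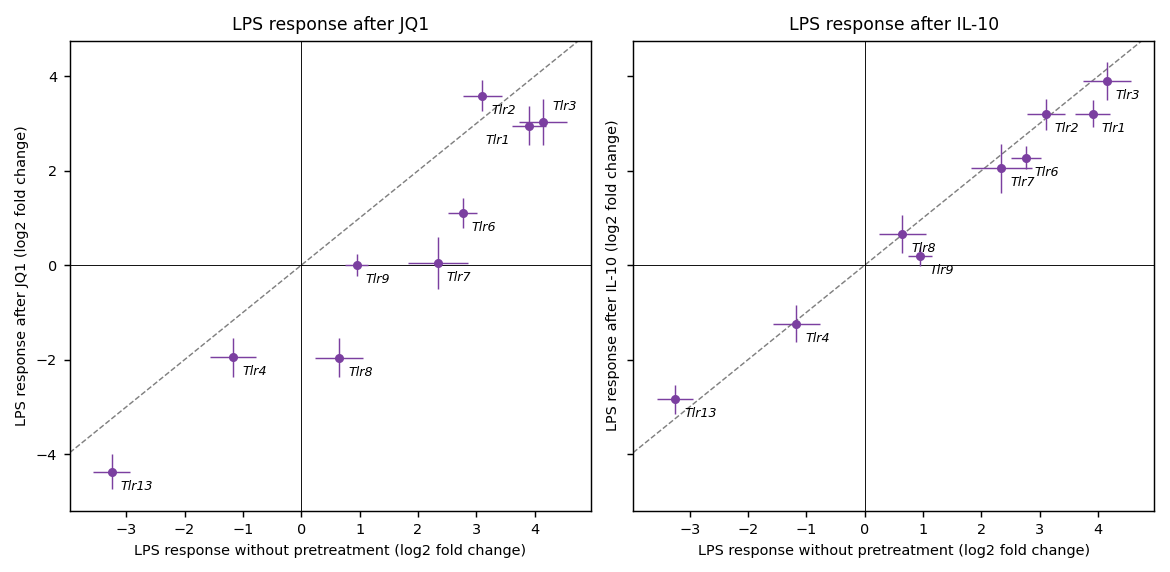
LPS response (log2 fold change with 95% intervals) of 9 Toll-like receptor genes without pretreatment, on the horizontal axis, against the response after JQ1 (left) or IL-10 (right), with a dashed line where both are equal. After JQ1, Tlr2 alone lies above the line, and after IL-10 the genes lie closer to it, with Tlr1, Tlr6 and Tlr9 below and Tlr13 above.

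Receptors depend on co-receptors, chaperones, endosomal enzymes, adaptors and inhibitors, described here by 5 lists. Their counts stand against 64.5% of all genes called for LPS (31.6% higher, 32.9% lower) and 57.3% for JQ1 before LPS (24.4% higher, 32.9% lower), so that 6 of 9 called, as for the proteases and nucleases with LPS, is near the share of all genes. Of 6 co-receptors, LPS raised 4 and lowered 0, and JQ1 before LPS lowered 6. With total-count scaling the split for LPS was 2 higher and 2 lower, and JQ1 before LPS lowered 3. Cd180, an LPS-related surface receptor that pairs with Ly86, changed by 1.89 with LPS (DESeq2 adjusted p 5.52e-38) and by -4.13 with JQ1 before LPS (adjusted p 2.13e-163) on the log2 scale. Ly86 changed by -2.14 in the latter. Cd14, which hands LPS to TLR4, rose by 2.34 with LPS and changed by -0.19 with JQ1 before LPS, where total-count scaling gave 0.19. Lbp, which passed in the latter, had at most 3 expected counts in any of those libraries, so no fold is given.

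Of 8 genes for chaperones and trafficking, LPS raised 5 and lowered 3, and total-count scaling gave 2 higher and 6 lower. JQ1 before LPS raised 2 and lowered 5. Slc15a3, an endosomal transporter of peptides and histidine, rose by 2.79 with LPS, and Ap3b1, a subunit of the AP-3 adaptor complex, rose by 1.51. Cnpy3 and Cnpy4, which encode proteins that assist the folding of TLRs, changed by -1.80 and -1.69 with LPS. With JQ1 before LPS, Cnpy3 rose by 1.33 and Ap3b1 changed by -0.97.

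Of 9 endosomal proteases and nucleases, LPS raised 3 and lowered 3 (2 and 7 with total-count scaling), and JQ1 before LPS raised 3 and lowered 5. Rnaset2b and Rnaset2a, near-identical ribonuclease genes whose reads may be split between them, rose by 2.92 and 2.23 with LPS. Ctsl, a cathepsin that cleaves endosomal TLRs, rose by 1.58 with JQ1 before LPS, while Pld4, an exonuclease of endosomes, changed by -2.38.

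Of 12 adaptors and proximal kinases, LPS raised 8 and lowered 4 (6 and 4 with total-count scaling), and JQ1 before LPS raised 2 and lowered 8 (3 and 7). Myd88, the adaptor of most TLRs, rose by 3.38 with LPS and changed by -1.51 with JQ1 before LPS. The kinase genes Irak2 (3.53 and -1.05) and Ikbke (3.47 and -1.53) had the same signs. Sarm1 changed by -2.28 with LPS, on 1 to 5 expected counts per LPS library.

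The list of inhibitors of TLR signalling held 7 genes, and whether each acts as an inhibitor in these cells was not tested. LPS raised 5 and lowered 0 of them (4 and 3 with total-count scaling, 5 and 1 with edgeR). JQ1 before LPS raised 1 and lowered 4 (2 and 4 with total-count scaling). Tnfaip3, which removes ubiquitin from signalling proteins, rose by 6.30 with LPS, and Peli1, a ubiquitin ligase, by 5.23. Both were lower with JQ1 before LPS (-1.68 and -1.28). The signalling adaptor gene Pik3ap1 gave 2.22 and -1.13, and Irak3, a kinase-dead relative of the IRAK kinases, 2.08 and -0.78. LPS + IL-10 against LPS gave 1.05 for Irak3 (DESeq2 adjusted p 3.28e-17).

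At rest, where 45.7% of all genes were called, JQ1 raised 1 and lowered 2 of the co-receptors, raised 3 and lowered 2 of the chaperones and trafficking genes (0 and 4 with total-count scaling), raised 5 and lowered 4 of the proteases and nucleases, raised 1 and lowered 7 of the adaptors and kinases (0 and 8) and raised 3 and lowered 2 of the inhibitors (1 and 2 on log2(TPM + 1)). With IL-10 before LPS, where 17.2% were called, the counts of higher and lower genes were 0 and 1, 1 and 0, 3 and 0, 2 and 2, and 2 and 1 in the same order. With total-count scaling the adaptors and kinases gave 2 and 1 there, and the inhibitors 4 and 1.

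**Figure D5:**
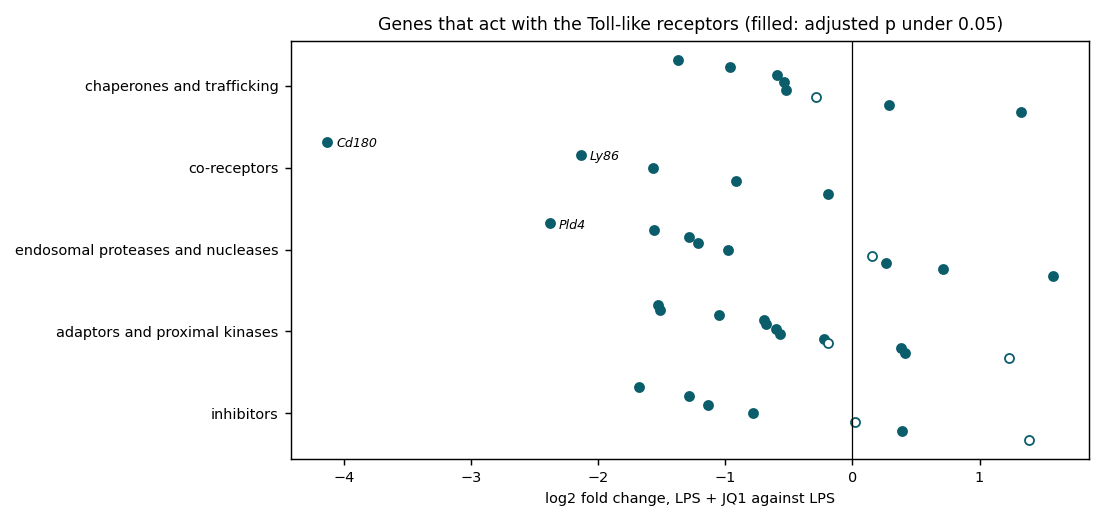
Log2 fold change of LPS + JQ1 against LPS for each gene of the 5 lists, 1 point per gene, filled for an adjusted p under 0.05, with genes beyond 2 in either direction named and Lbp, at the count floor, left out. The 5 co-receptors drawn lie below 0, of which Cd14 turns to 0.19 with total-count scaling, and every other list holds genes on both sides.

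The patterns of the receptors over the 18 libraries were compared by Pearson's r of log2(normalised count + 1), which is given as a description, since libraries of a group share their treatment. Tlr1, Tlr3 and Tlr6 ran together (r of 0.97 to 0.98), Tlr7 with Tlr9 (0.95) and Tlr4 with Tlr13 (0.95). Tlr7 also ran with Tlr6 (0.92) and Tlr1 (0.91). Tlr2 ran most closely with Tlr3 (0.87), then with Tlr1 and Tlr6 (0.75 for each), and opposite to Tlr13 (-0.79). Among 9479 genes with a mean of at least 50 normalised counts, the closest to Tlr2 were Mx1 (0.998), Gbp5 (0.997) and Cxcl10 (0.996), the closest to Tlr3 were Samd9l (0.996), Milr1 (0.996) and Ms4a6c (0.996), and the closest to Tlr6 were Itga4 (0.997), Lgals8 (0.992) and 9930111J21Rik1 (0.990). Rin3, Clec5a and Tfec were the closest to Tlr1 (0.986 to 0.987), and Clec4d, Ms4a7 and Anxa3 to Tlr7 (0.984 to 0.992). Dip2c, Slc39a8 and Anxa3 were the closest to Tlr9 (0.980 to 0.987), and Myo1f, Arhgef6 and Fgd4 to Tlr13 (0.989). Wdr41, Hpgds and Cd300ld were the closest to Tlr4 (0.979 to 0.985). Tlr8 had the loosest match, with Trps1 (0.957), Zmym4 (0.948) and Slk (0.948).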

How the data were processed

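Ribosomal RNA was removed and strand kept in the libraries. The authors filtered reads with TagDust, mapped them with STAR to the mouse build mm9 and estimated gene levels with RSEM 1.2.31 at default settings, which ignore strand. The deposited expected counts are RSEM's estimated reads per gene. They were rounded and tested by DESeq2 1.42.0 (R 4.3.3, Wald test) in 1 model with a term for group, median-of-ratios scaling, independent filtering and Benjamini-Hochberg adjusted p under 0.05. The deposited TPM values, the authors' length-scaled abundances, gave levels between genes. The authors' effective lengths, in bases, served in a length offset. The deposited FPKM values were not used.

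The TLR members, the 5 lists and the rules were chosen with earlier results of these data known. Named genes were all members, the 3 genes with the highest r to each member with at least 10 mean counts, and at most 4 passing genes per list with the largest change in LPS against Unstimulated or LPS + JQ1 against LPS. The kB consensus was added after the promoter windows were seen, and the promoters shown were chosen after the values.

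Replicate numbers were taken as pairs because the labels call the cultures matched and from 3 mice. The deviations of same-numbered libraries had a mean correlation of -0.03 to 0.25 over the 9 comparisons of groups. It was -0.01 for LPS + JQ1 against LPS, -0.03 for LPS + JQ1 against LPS + IL-10 and 0.01 for LPS + IL-10 against IL-10. In these comparisons the pairing rests on the labels alone. For LPS + JQ1 against Unstimulated it was 0.04. Replicates 1 and 3 also lay in different lanes, so such correlations cannot tell mouse from lane. Replicates of a group were not duplicate deposits. Alternatives were edgeR 4.0.16 (TMM), limma 3.58.1 on log2(TPM + 1) and log2(TPM + 0.1), total-count scaling, a length offset, other filters, the replicate block, the lane, fits of only the groups compared, and leaving out each replicate and library. Tests were checked on simulated counts in which few genes changed, evenly up and down, which cannot test the choice of scaling. Positions and coding sequences came from GENCODE vM1 (mm9), promoter windows from RefSeq (GRCm38.p6).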

Additional observations from a re-analysis of the deposited data

Results flagged for a closer look

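The LPS response differed with JQ1, by the interaction term of the DESeq2 fit (response after JQ1 minus response without it, log2 scale), for Tlr1 (-0.95, adjusted p 0.00108), Tlr3 (-1.12, adjusted p 0.00206), Tlr4 (-0.78, adjusted p 0.0213) and Tlr6 (-1.66, adjusted p 1.72e-14). It also differed for Tlr7 (-2.30, adjusted p 2.05e-08), Tlr8 (-2.60, adjusted p 2.39e-17), Tlr9 (-0.95, adjusted p 2.11e-08) and Tlr13 (-1.12, adjusted p 3.22e-05), each lower in 3 of 3 pairs. Of all genes, 41.5% passed. Of 31 alternatives, the call was lost in 9 for Tlr4, in 3 each for Tlr1 and Tlr13 and in 2 for Tlr3. Tlr6, Tlr7, Tlr8 and Tlr9 passed in all of them.

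The LPS response differed with IL-10, by the same term, for Tlr1 (-0.70, adjusted p 0.0163) and Tlr9 (-0.76, adjusted p 8.43e-06), in 3 of 3 pairs for both. Of all genes, 7.44% passed. The call was lost in 12 of 31 alternatives for Tlr1 and in 1 for Tlr9.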

How the results depend on the processing

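Of the counts of TLR genes called over 11 comparisons, 100 stayed within 1.5 times the main count and 10 did not under settings that keep all libraries, and 213 stayed and 18 did not when libraries were left out. With the replicate block the call of lower Tlr5 in LPS + JQ1 than in Unstimulated was lost (adjusted p 0.0546, count 7 in place of 8), and the block changed no other call of a member. Leaving out libraries or replicates gave 8 to 9 genes for LPS against Unstimulated, 7 to 8 for JQ1 against Unstimulated, 0 to 1 for IL-10 against Unstimulated, 8 to 8 for LPS + JQ1 against LPS, 0 to 3 for LPS + IL-10 against LPS, 7 to 7 for LPS + JQ1 against JQ1, 7 to 8 for LPS + IL-10 against IL-10, 7 to 8 for LPS + JQ1 against Unstimulated, 8 to 8 for LPS + JQ1 against LPS + IL-10, 6 to 8 for the interaction with JQ1 and 0 to 3 for that with IL-10.

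IL-10 against Unstimulated gave 0 genes with edgeR, 0 with limma at either pseudocount and 2 with only the groups compared. The interaction with JQ1 gave 5 with total-count scaling and 5 on log2(TPM + 0.1), and that with IL-10 gave 1 with edgeR, total counts and limma at either pseudocount. In the opposite direction from the main value, Tlr8 had -0.28 (total counts), -0.12 (log2(TPM + 1)) and -0.13 (log2(TPM + 0.1)) for LPS against Unstimulated, and -0.17, -0.0804 and -0.0816 for LPS + IL-10 against IL-10. In that order Tlr9 had -0.37, -0.23 and -0.26 for LPS + JQ1 against JQ1 and -0.64, -0.51 and -0.53 for LPS + IL-10 against IL-10, and Tlr4 had 0.0750 on log2(TPM + 1) for the interaction with JQ1. The cause of these reversals was not tested. Tlr5 had 0 to 11 counts per library.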

Other observations

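Tlr11 and Tlr12, the other mouse TLR genes, which recognise profilin of protozoan parasites, were near the floor in resting cells. Tlr11 had 4, 0 and 2 expected counts in Unstimulated, 10, 14 and 5 in LPS, 5, 7 and 15 in LPS + IL-10 and 2, 0 and 2 in LPS + JQ1. In expected counts, all 6 libraries of LPS and LPS + IL-10 thus lay above all 12 others, by as little as 1 count. Tlr12 had 7, 2 and 4 counts in Unstimulated, 0, 1 and 1 in LPS and 0 in all 3 libraries of LPS + JQ1.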
